A study of Mus musculus with 6 samples.

Results

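J-domain proteins of the DNAJ family were read in heart ventricle RNA by 46 probe sets of an Affymetrix Mouse Gene 1.0 ST array, out of 20239 probe sets with 1 gene symbol. The members are all probe sets whose symbol starts with Dnaja, Dnajb or Dnajc followed by a digit, which makes 4 of class A, 13 of class B and 29 of class C. The last class includes the pseudogene Dnajc19-ps. By their labels the mice were 3.5-week-old males of the 129/Sv background, 3 labelled Hspa4-/- and 3 labelled Hspa4+/+ (wild type). All were untreated as far as the labels say, and the sources used here do not say which part of Hspa4 was disrupted. Hspa4 is an exchange factor of the Hsp110 family, which releases ADP from Hsp70. The labels give 3 mice a genotype, so the arrays were read as 6 mice. The values are on the log2 scale, and with so few arrays the precision is limited by their number.

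J-domain proteins are the partners that start the Hsp70 cycle. The J domain, through its conserved His-Pro-Asp motif, stimulates ATP hydrolysis by Hsp70 so that a client protein is held, and an exchange factor such as Hspa4 then opens the cycle again. Class A proteins carry a glycine- and phenylalanine-rich stretch and a zinc-binding region, class B proteins lack the zinc-binding region, and class C proteins share only the J domain and are often tied to 1 place or task. Muscle leans on this system because contraction wears proteins of the sarcomere, and inherited defects of DNAJB6 and DNAJB4 cause human myopathies.

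The labels were checked on Hspa4 first. On the arrays labelled Hspa4-/- it read 9.33 in replicate 1, 6.63 in replicate 2 and 6.75 in replicate 3, against 9.74, 9.50 and 9.48 on the wild-type arrays. The array labelled Hspa4-/- replicate 1 therefore goes against its label, and Xist, the RNA of the inactive X chromosome in females, stood at 7.68 on it and between 5.51 and 5.69 on the other 5. That Xist value also goes against the label of a male mouse. Most results are given with all 6 arrays and with the other 5, and both forms share the wild-type arrays. Where the difference or interval of a member stands alone with no form named, it is that on 6 arrays. Hspa4 differed by −2.01 (SE 0.58) on 6 arrays (limma, adjusted p = 0.263; exact two-sided permutation p = 0.1, the smallest possible here) and by −2.89 (SE 0.10) on 5. The 8 ventricular cardiomyocyte markers read between 10.13 and 13.33 on every array, and their mean lay between 12.11 and 12.18 on the arrays labelled Hspa4-/- and between 11.95 and 12.05 in wild type. The mean of 4 macrophage markers lay between 7.42 and 7.52 on the arrays labelled Hspa4-/- and between 7.59 and 7.69 in wild type. In both forms 0 markers of either list passed over all genes (limma). An unadjusted p under 0.05 was reached by 3 of the 8 cardiomyocyte and 2 of the 4 macrophage markers in each form. Of all 20239 genes, 2261 reached it on 6 arrays and 3018 on 5 (limma). The part of these markers in the values below was not tested. In these bulk samples fewer cells of a type and less RNA per cell cannot be told apart.

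No DNAJ member passed the test in either form, and the median of the family lay close to that of all genes when no filter was used. With 6 arrays 0 of 46 members had an adjusted p under 0.05, where 0% of all genes did (limma, Benjamini-Hochberg over 20239 genes). The smallest adjusted p of a member was 0.274. At an unadjusted p under 0.05, 5 members were lower and 1 higher on the arrays labelled Hspa4-/-. That is 10.9% and 2.17% of the members, against a background of 5.53% and 5.64% of all genes. The median log2 difference over the members was −0.04, with 16 above 0 and 30 below, beside a median of −0.01 over all genes tested. In wild type the median level was 7.39 over the members and 6.45 over all genes. With the lowest 50% of genes left out, the all-gene median difference was 0.022 on 6 arrays and 0.037 on 5, and 38 members stayed. A median over those members was not taken. The median size of a difference, without its sign, was 0.07 both over the members and over all genes. The 2 labels were fully separated in 5 members, 4 lower (8.7%, background 9.07%) and 1 higher (2.17%, background 6.08%). The shares of separated members lie near or below the background, while the share lower at an unadjusted p under 0.05 lies above it. These counts were not tested against other genes.

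With replicate 1 of the Hspa4-/- label set aside, 0 of 46 members were called on the remaining 5 arrays, where 0.44% of all genes passed (limma). Dnajc28 and Dnaja1 came nearest, with adjusted p = 0.0634 and 0.0655 (limma). At an unadjusted p under 0.05 there were 7 members lower (15.2%, background 6.36%) and 4 higher (8.7%, background 8.55%). The labels were fully separated in 10 members lower (21.7%, background 18.9%) and in 4 higher (8.7%, background 14.4%). The median difference was −0.03 over the members and −0.02 over all genes. Leaving out wild-type replicate 2 as well let 3 members pass: Dnaja1 fell and Dnajc28 fell, by 0.53 and 0.38 on the log2 scale, and Dnajc30 rose by 0.60 (limma, adjusted p = 0.0173, 0.0365 and 0.0272). Those values rest on 2 arrays of each label, and 875 of all 20239 genes passed in that setting (limma).

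The 95% intervals show how large a difference these arrays could have missed. Their half-width on 6 arrays ran from 0.13 to 0.32 on the log2 scale with a median of 0.18, and on 5 arrays from 0.15 to 0.37. In 44 of the 46 members on 6 arrays, and in 43 on 5, the interval lay wholly between −0.5 and 0.5. The exceptions among the members were Dnaja1 and Dnajc30 in both forms and Dnajc28 on 5 arrays. Of all 20239 genes, 19191 had such an interval on 6 arrays and 18676 on 5, so most genes did as well. These intervals are those of single genes and are not widened for the number of genes. A difference larger than its half-width could thus still miss the threshold over all genes, as that of Dnaja1 did on 5 arrays.

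By class, the 4 class A genes had the lowest median difference, −0.12 on 6 arrays and −0.13 on 5. The 13 class B genes had medians of −0.01 and −0.04, and the 29 class C genes −0.04 and −0.01. Taken array by array as the median distance from the wild-type means, class A stood at −0.02, −0.10 and −0.16 in replicates 1, 2 and 3 labelled Hspa4-/-, against 0.04, 0.00 and −0.04 on the wild-type arrays. Replicate 1, the one with high Hspa4, thus lay among the wild-type arrays for class A, and the other arrays of its label lay below them. With 4 genes this median is a description and was not tested against other genes. Class C stood at −0.05, −0.01 and −0.01 on the arrays labelled Hspa4-/- and at 0.03, 0.02 and −0.05 in wild type, so the groups overlapped.

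**Figure D1:**
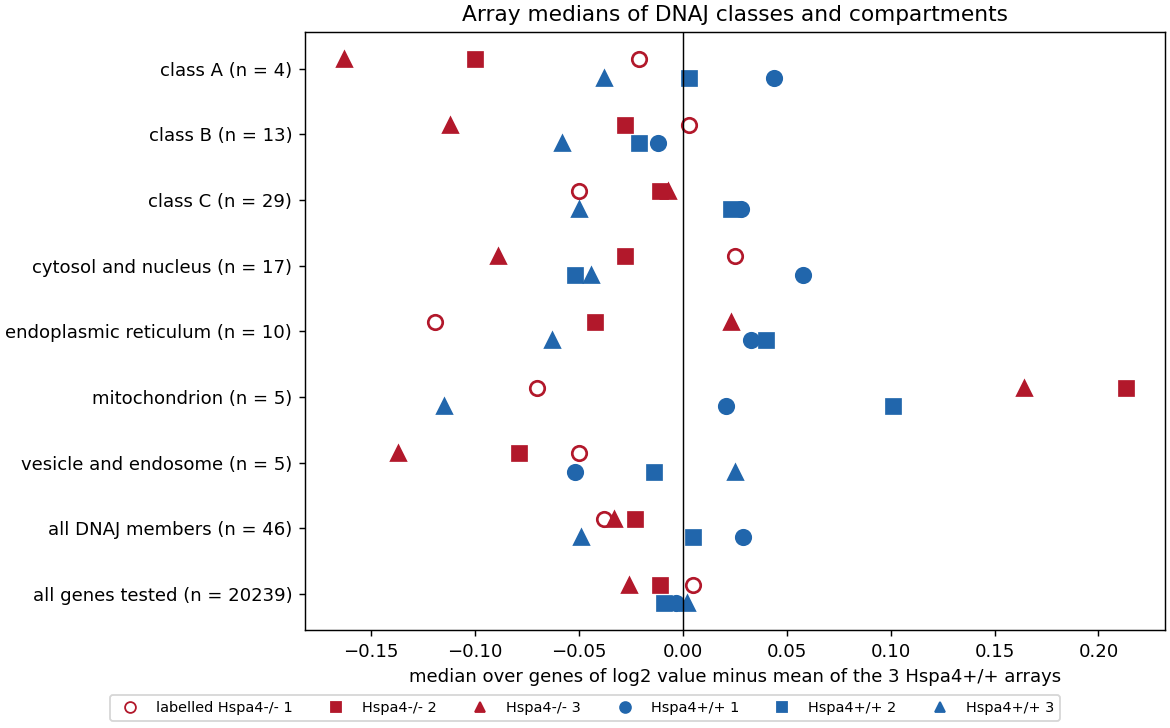
Median over the genes of each DNAJ class and compartment of the log2 value minus the mean of the 3 wild-type arrays (x axis), 1 point per array, with the arrays labelled Hspa4-/- in red above the wild-type arrays in blue. Class A lies at −0.10 and −0.16 on replicates 2 and 3 labelled Hspa4-/-, and the mitochondrial genes at 0.21 and 0.16 on the same arrays, while replicate 1 (open circle) lies within or near the wild-type arrays in both.

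Dnaja1 encodes a farnesylated cytosolic partner of Hsc70, the constitutive Hsp70. It read 7.18, 6.59 and 6.75 in replicates 1, 2 and 3 labelled Hspa4-/-, against 7.19, 7.01 and 7.21 on the wild-type arrays. Replicate 1 sat among the wild-type arrays, and replicates 2 and 3 lay below all of them. On 6 arrays the difference was −0.30 (SE 0.13; limma, adjusted p = 0.457), with a mean of 6.84 ± 0.30 on the arrays labelled Hspa4-/- and 7.14 ± 0.11 in wild type (SD, n = 3 each). On 5 arrays it was −0.46 (SE 0.09; limma, adjusted p = 0.0655), a ratio of 0.725 on the linear scale, and the 95% interval ran from −0.67 to −0.26. It did not pass there, and whether it passed depended on the setting. With the lowest 50% of genes by mean value left out, Dnaja1 fell by 0.46 on the log2 scale (adjusted p = 0.0495), and with limma's array weights it fell by 0.48 (adjusted p = 0.0377). It missed the threshold with the lowest 25% of genes left out (limma, adjusted p = 0.0548), with quantile normalisation (0.0733) and with subtracted array medians (0.0893). It also missed it with the replicate block (0.0867), and with any one of the other arrays but wild-type replicate 2 left out (0.182 to 0.277).

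The heat shock factor Hsf1 binds inverted repeats of a GAA unit, and promoter windows of the DNAJ genes were searched for them because Dnaja1 and several of its relatives are known heat shock genes. RefSeq windows on GRCm38.p6, from 250 bases before to 50 after a gene's start, matched 37 of the 46 members by symbol. A pair of units, written GAANNTTC and identical on both strands, was found in a window of 5 of the 37 (Dnaja1, Dnaja4, Dnajb6, Dnajc5g and Dnajc27), and 9.04% of all 27025 genes with a window hold it. The pair in the other order, TTCNNGAA, was not searched for by itself, so these counts do not cover it. The set of 3 units, GAANNTTCNNGAA or its reverse complement, contains the pair. It was found in Dnajb6 alone among the members, and 0.662% of all genes hold it. The windows of Dnaja1 and Dnajb6 are shown 5′ to 3′, since Dnaja1 came nearest to the threshold in class A and Dnajb6 is the member known from the Z disc, with the matched letters in capitals. The match starts 124 bases before the start site in the Dnaja1 window and 46 bases before it in the Dnajb6 window.
Dnaja1 (chr4:40722218-40722517, plus strand): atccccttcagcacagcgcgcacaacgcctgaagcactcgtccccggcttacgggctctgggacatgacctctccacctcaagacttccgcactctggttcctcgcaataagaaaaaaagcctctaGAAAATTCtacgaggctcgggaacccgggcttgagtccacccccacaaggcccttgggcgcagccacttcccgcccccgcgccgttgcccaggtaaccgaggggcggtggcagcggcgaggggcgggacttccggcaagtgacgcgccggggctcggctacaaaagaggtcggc
Dnajb6 (chr5:29735648-29735947, plus strand): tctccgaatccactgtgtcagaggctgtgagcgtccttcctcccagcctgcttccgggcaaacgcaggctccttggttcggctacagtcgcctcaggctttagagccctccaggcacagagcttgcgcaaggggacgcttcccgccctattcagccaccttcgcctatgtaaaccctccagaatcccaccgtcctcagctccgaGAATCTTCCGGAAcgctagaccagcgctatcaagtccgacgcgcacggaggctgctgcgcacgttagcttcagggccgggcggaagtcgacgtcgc
Dnaja1 has 3 such windows and Dnajb6 has 2, from alternative starts, and the first with a match is shown. A match describes these letters only and is no evidence of binding in these hearts.

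Dnaja2, the other main cytosolic class A partner of Hsc70 in protein refolding, read 8.96, 8.97 and 8.82 on the arrays labelled Hspa4-/- and 9.13, 9.12 and 9.07 in wild type. The groups did not overlap, and here replicate 1 lay with its label. The difference was −0.19 (SE 0.07; limma, adjusted p = 0.357) on 6 arrays and −0.21 (SE 0.08; limma, adjusted p = 0.250) on 5. Dnaja3, the mitochondrial matrix partner of Hspa9, read 8.47, 8.47 and 8.50 on the arrays labelled Hspa4-/- against 8.58, 8.54 and 8.51 in wild type. Its groups did not overlap, yet the gap between the nearest arrays was about as small as the rounding, and the difference was −0.06 (SE 0.06; limma, adjusted p = 0.795). Dnaja4, a heat-inducible cytosolic member, read 7.92, 7.85 and 8.09 on the arrays labelled Hspa4-/- and 7.96, 7.90 and 7.82 in wild type. It overlapped, and its 95% interval ran from −0.12 to 0.24 on 6 arrays. Within class A the 95% interval of Dnaja2 lay below 0 in both forms and that of Dnaja1 on 5 arrays, while those of Dnaja3 and Dnaja4 included 0 in both.

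Among the cytosolic class B genes, Dnajb1, the heat-inducible Hsp40, read 6.71, 6.53 and 6.54 on the arrays labelled Hspa4-/- and 6.83, 6.66 and 6.72 in wild type. As for Dnaja1, replicate 1 lay inside the wild-type range and the other arrays of its label below it. The difference was −0.14 (SE 0.08; limma, adjusted p = 0.532) on 6 arrays and −0.20 (SE 0.08; limma, adjusted p = 0.259) on 5. Dnajb4, a relative of Dnajb1 known from skeletal muscle, read 9.56, 9.88 and 9.62 on the arrays labelled Hspa4-/- against 10.06, 9.83 and 9.89 in wild type. For Dnajb4 it was replicate 2 that lay among the wild-type arrays, and replicate 1 was the lowest of all. Its difference was −0.24 (SE 0.10; limma, adjusted p = 0.408) on 6 arrays and −0.18 (SE 0.10; limma, adjusted p = 0.466) on 5.

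**Figure D2:**
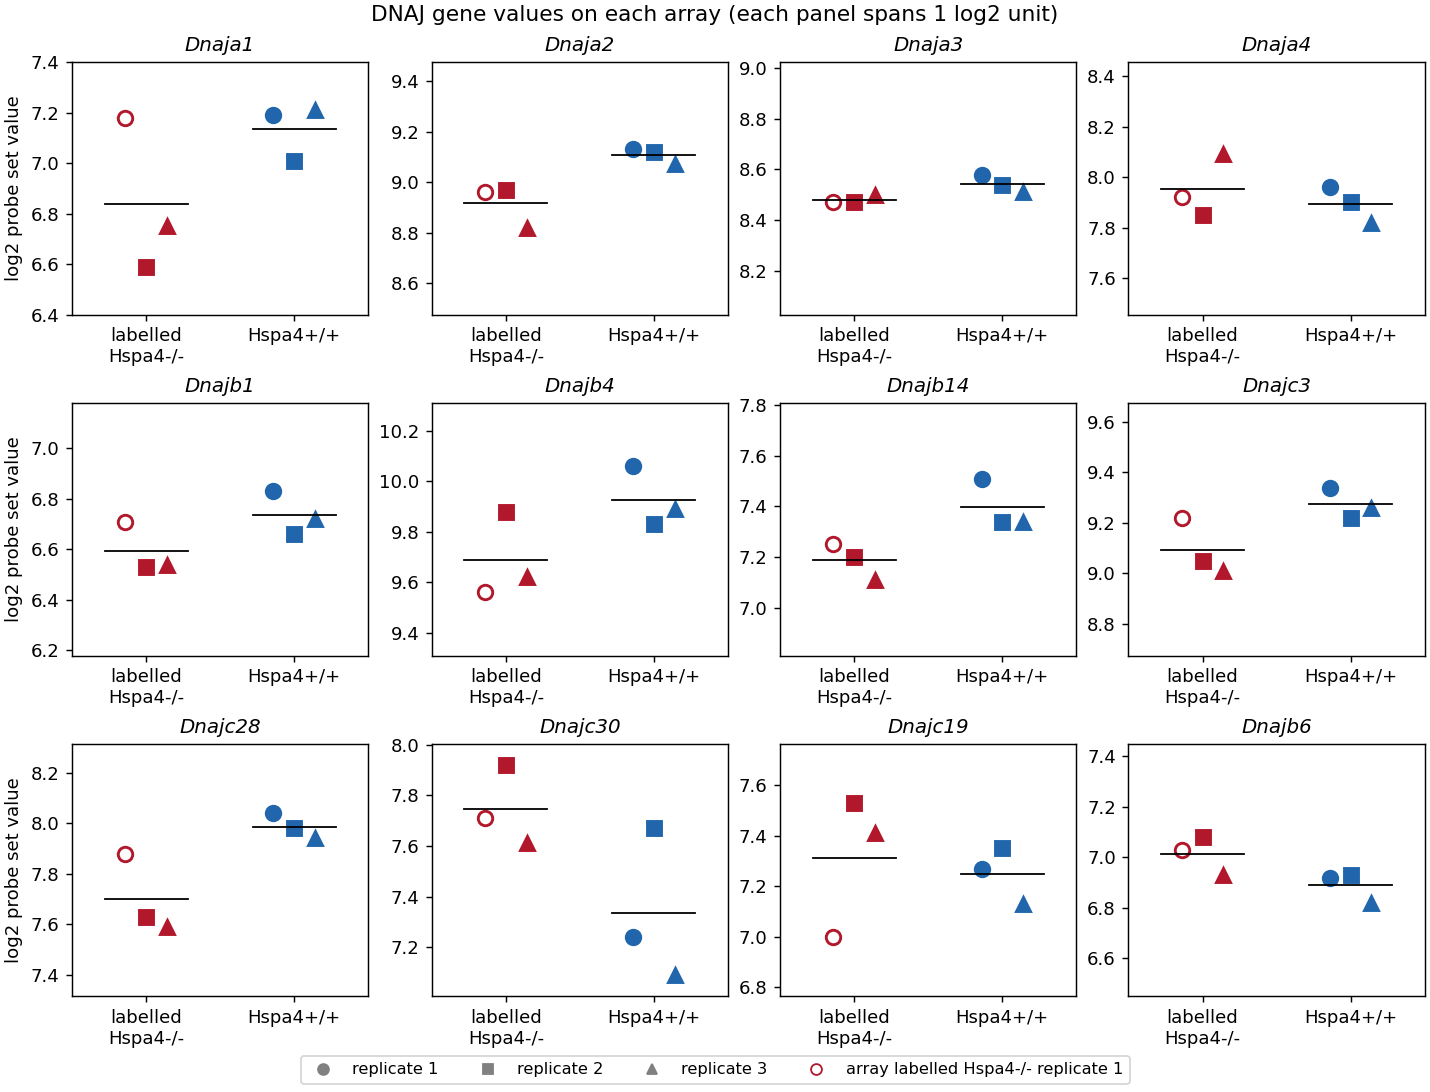
Log2 probe set value (y axis, 1 log2 unit per panel) of 12 DNAJ genes on each array, with the arrays labelled Hspa4-/- left and the wild-type arrays right, markers for the replicates and a line at the group mean. Dnaja1 on the open circle, the array labelled Hspa4-/- replicate 1, lies at 7.18 beside the wild-type arrays, while Dnaja2, Dnaja3, Dnajb14 and Dnajc28 separate the labels on all 6 arrays.

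Dnajb5 and Dnajb6 are the class B members best known from heart muscle. Dnajb5, which binds class IIa histone deacetylases in cardiac cells, read 8.62, 8.66 and 8.30 on the arrays labelled Hspa4-/- and 8.26, 8.71 and 8.27 in wild type. Both groups spread widely and overlapped, with a difference of 0.11 (SE 0.13; limma, adjusted p = 0.833). Dnajb6, a suppressor of protein aggregation found at the Z disc, read 7.03, 7.08 and 6.93 on the arrays labelled Hspa4-/- and 6.92, 6.93 and 6.82 in wild type. The groups touched at 6.93, and the difference was 0.12 (SE 0.07; limma, adjusted p = 0.579) on 6 arrays and 0.11 on 5. Dnajb2, an ubiquitin-binding member best known from neurons, differed by 0.00 on 6 arrays (95% interval −0.22 to 0.21) and by −0.08 on 5. The testis-enriched Dnajb8 differed by −0.08 on 6 arrays and −0.10 on 5, and Dnajb3, also testis-enriched, by −0.09 and −0.13.

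Cytosolic and nuclear class C genes lay close to wild type. Dnajc2, the zuotin relative that works at the ribosome, read 7.05, 7.00 and 7.03 on the arrays labelled Hspa4-/- and 7.00, 6.96 and 6.98 in wild type. It was the only member above wild type on all 6 arrays without overlap, by a gap smaller than the printed digits, and the difference was 0.04 (SE 0.06; limma, adjusted p = 0.862). Dnajc7, which links Hsp70 to Hsp90 through tetratricopeptide repeats, differed by 0.01 with a 95% interval from −0.16 to 0.18. The diphthamide synthesis factor Dnajc24 differed by −0.12 on 6 arrays and −0.06 on 5, and Dnajc21, a factor of large ribosomal subunit maturation, by −0.08 and −0.10. Over the 17 genes of cytosol and nucleus the median difference was −0.04 on 6 arrays and −0.03 on 5. At an unadjusted p under 0.05 were 2 genes on 6 arrays (11.8%, background for lower genes 5.53%) and 3 on 5 (17.6%, background 6.36%; limma), all of them lower and all of class A or B.

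In the endoplasmic reticulum, Dnajc3, the luminal BiP partner p58IPK, read 9.22, 9.05 and 9.01 on the arrays labelled Hspa4-/- and 9.34, 9.22 and 9.26 in wild type. Replicate 1 lay level with the lowest wild-type array at 9.22, and the other arrays of its label lay below. The difference was −0.18 (SE 0.08; limma, adjusted p = 0.419) on 6 arrays and −0.24 (SE 0.07; limma, adjusted p = 0.173) on 5. Dnajb14, anchored in the membrane with its J domain in the cytosol, read 7.25, 7.20 and 7.11 on the arrays labelled Hspa4-/- and 7.51, 7.34 and 7.34 in wild type. All arrays labelled Hspa4-/- lay below all wild-type arrays, and the difference was −0.21 (SE 0.07; limma, adjusted p = 0.329) on 6 arrays and −0.24 on 5 (SE 0.08; limma, adjusted p = 0.216). Its close relative Dnajb12 had a positive difference. It read 7.12, 7.30 and 7.21 on the arrays labelled Hspa4-/- and 6.99, 7.18 and 6.98 in wild type, with a difference of 0.15 (SE 0.08; limma, adjusted p = 0.521) on 6 arrays and 0.20 (SE 0.08; limma, adjusted p = 0.318) on 5. Dnajc18, another relative of this membrane-anchored branch, differed by 0.08 on 6 arrays and 0.14 on 5.

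The other members that the unfolded protein response is known to induce lay within the wild-type spread or close to it. Dnajb9 (ERdj4) read 8.72, 8.92 and 8.71 on the arrays labelled Hspa4-/- and 8.93, 8.92 and 8.73 in wild type, and Dnajb11 (ERdj3) 8.17, 8.36 and 8.39 against 8.47, 8.27 and 8.20. Both overlapped, with differences of −0.08 and −0.01 on 6 arrays and of −0.04 and 0.06 on 5. Dnajc10 (ERdj5), a disulphide reductase, differed by −0.04 with a 95% interval from −0.21 to 0.13, and the membrane protein Dnajc16 by −0.10. Over the 10 genes of the endoplasmic reticulum the median was −0.05 on 6 arrays and −0.01 on 5. At an unadjusted p under 0.05, 2 of these 10 were lower on 6 arrays (20.0%, background 5.53%; limma). On 5 arrays 2 were lower (20.0%, background 6.36%) and 1 higher (10.0%, background 8.55%). The endoplasmic reticulum stress element, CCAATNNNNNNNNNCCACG or its reverse complement, was searched in the same windows. It was found in 1 of the 37 members with a window, Dnajc3, and in 0.137% of all genes. It starts 105 bases before the start site, and the window is shown because Dnajc3 had the smallest unadjusted p among luminal partners of BiP. The matched letters are in capitals.
Dnajc3 (chr14:118937682-118937981, plus strand): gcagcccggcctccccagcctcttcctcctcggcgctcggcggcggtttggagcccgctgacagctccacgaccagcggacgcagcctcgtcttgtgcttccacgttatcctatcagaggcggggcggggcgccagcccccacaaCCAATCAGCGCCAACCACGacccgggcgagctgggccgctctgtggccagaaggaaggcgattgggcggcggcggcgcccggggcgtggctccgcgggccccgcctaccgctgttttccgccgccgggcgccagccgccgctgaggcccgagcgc
The sequences above are RefSeq's, on GRCm38.p6, and no array value was taken from them.

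Mitochondrial members were the group with a positive median, 0.04 on 6 arrays and 0.15 on 5, over only 5 genes. The sign on 6 arrays rested on single arrays: the median was −0.04 without replicate 2 labelled Hspa4-/- and −0.01 without replicate 3 of that label. Dnajc30, an inner membrane protein linked to the respiratory chain, read 7.71, 7.92 and 7.61 on the arrays labelled Hspa4-/- and 7.24, 7.67 and 7.09 in wild type. Wild-type replicate 2 lay within the range of the arrays labelled Hspa4-/-, and the other wild-type arrays lay below it. The difference was 0.41 (SE 0.14; limma, adjusted p = 0.322) on 6 arrays and 0.43 (SE 0.16; limma, adjusted p = 0.270) on 5, a ratio of 1.33 and 1.35 on the linear scale. Dnajc19, a subunit of the inner membrane import motor whose loss in humans causes a cardiomyopathy with ataxia, read 7.00, 7.53 and 7.41 on the arrays labelled Hspa4-/- and 7.27, 7.35 and 7.13 in wild type. Replicate 1 was the lowest of all arrays and replicates 2 and 3 the highest. Its difference was accordingly 0.07 (SE 0.13; limma, adjusted p = 0.908) on 6 arrays and 0.22 (SE 0.09; limma, adjusted p = 0.277) on 5. The probe set of the pseudogene Dnajc19-ps differed by 0.07 and 0.12, and signal of the gene and of its near copy on these probes could not be told apart here.

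Dnajc15, an inner membrane relative of Dnajc19 that restrains respiration, read 7.46, 7.91 and 7.79 on the arrays labelled Hspa4-/- and 7.66, 7.84 and 7.58 in wild type. It showed the same order of arrays within its label as Dnajc19, with replicate 1 lowest, and differed by 0.03 on 6 arrays and 0.15 on 5 (SE 0.09; limma, adjusted p = 0.480). Dnajc11, an outer membrane protein linked to cristae, differed by 0.04 and 0.09. Taken array by array, the mitochondrial median stood at −0.07, 0.21 and 0.16 on the arrays labelled Hspa4-/- and at 0.02, 0.10 and −0.11 in wild type.

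**Figure D3:**
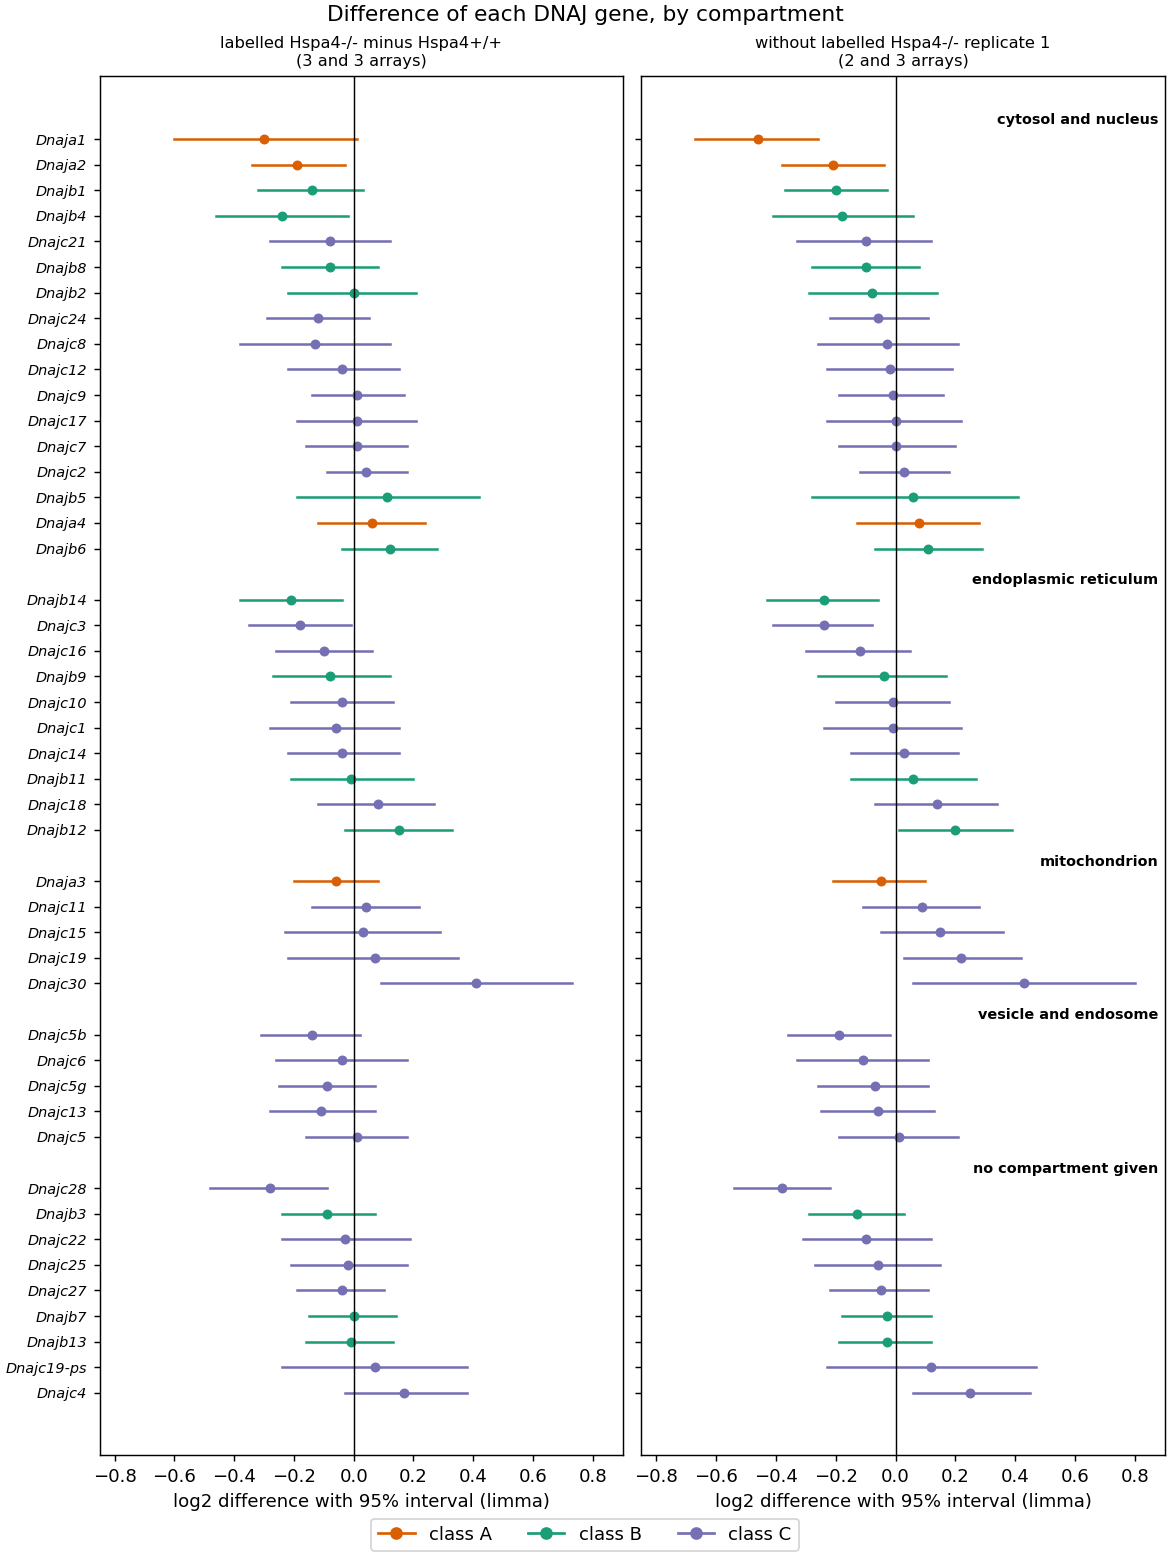
Log2 difference (labelled Hspa4-/- minus wild type) with its 95% interval (limma; x axis) for each of the 46 DNAJ genes by compartment, coloured by class, on 6 arrays (left) and without replicate 1 of the Hspa4-/- label (right). On 6 arrays 44 of the 46 intervals lie between −0.5 and 0.5, as do 19191 of the 20239 over all genes. The points farthest from 0 on 5 arrays are Dnaja1 (−0.46), Dnajc30 (0.43) and Dnajc28 (−0.38).

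Dnajc28, a poorly characterised member given no compartment here, had the smallest unadjusted p of the family in both forms. It read 7.88, 7.63 and 7.59 on the arrays labelled Hspa4-/- and 8.04, 7.98 and 7.94 in wild type. The groups did not overlap, and replicate 1 lay between the other arrays of its label and wild type. The difference was −0.28 (SE 0.09; limma, adjusted p = 0.274) on 6 arrays and −0.38 (SE 0.07; limma, adjusted p = 0.0634) on 5, a ratio of 0.771 on the linear scale in the second form. On 5 arrays it fell by 0.43 on the log2 scale with quantile normalisation (limma, adjusted p = 0.0473) and by 0.39 with array weights (adjusted p = 0.0377). It missed the threshold with the lowest 25% or 50% of genes left out (limma, adjusted p = 0.0581 and 0.0545) and with subtracted array medians (0.0972). It also missed it with the replicate block (0.180), and with any one of the other arrays but wild-type replicate 2 left out (0.165 to 0.278). Dnajc4, also given no compartment, read 7.12, 7.31 and 7.41 on the arrays labelled Hspa4-/- and 6.97, 7.16 and 7.19 in wild type. It differed by 0.17 (SE 0.09; limma, adjusted p = 0.539) and 0.25 (SE 0.09; limma, adjusted p = 0.225), and on 5 arrays its groups did not overlap. Dnajc22 differed by −0.03 on 6 arrays and −0.10 on 5.

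The 5 genes of vesicles and endosomes had median differences of −0.09 on 6 arrays and −0.07 on 5. With the lowest 25% of genes left out the medians were −0.04 and −0.03. They then rest on Dnajc5, Dnajc6 and Dnajc13 on 6 arrays and on Dnajc5 and Dnajc13 alone on 5. Dnajc5, the cysteine string protein that protects secretory vesicle proteins, read 9.14, 9.05 and 9.22 on the arrays labelled Hspa4-/- and 9.02, 9.22 and 9.16 in wild type. It overlapped fully and differed by 0.01 with a 95% interval from −0.16 to 0.18. Its relative Dnajc5b read 5.73, 5.61 and 5.57 on the arrays labelled Hspa4-/- and 5.86, 5.76 and 5.71 in wild type, a difference of −0.14 (SE 0.07; limma, adjusted p = 0.505) on 6 arrays and −0.19 (SE 0.07; limma, adjusted p = 0.273) on 5. Dnajc5b was one of 4 members in the lowest 25% of genes by mean value on 6 arrays, with Dnajb3, Dnajb7 and Dnajc5g. Dnajc6, the clathrin-uncoating auxilin of neurons, differed by −0.04 and −0.11.

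The other 13 members, with values between 5.31 and 9.17, had differences from −0.13 to 0.07 on 6 arrays and from −0.07 to 0.12 on 5. Their smallest adjusted p was 0.695 and 0.719 (limma). They were Dnajb7 and Dnajb13, the membrane proteins Dnajc1 and Dnajc14 of the endoplasmic reticulum, Dnajc5g, the splicing-linked Dnajc8 and Dnajc17, the histone chaperone Dnajc9, Dnajc12, the endosomal Dnajc13, Dnajc25, Dnajc27 and the pseudogene.

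**Figure D4:**
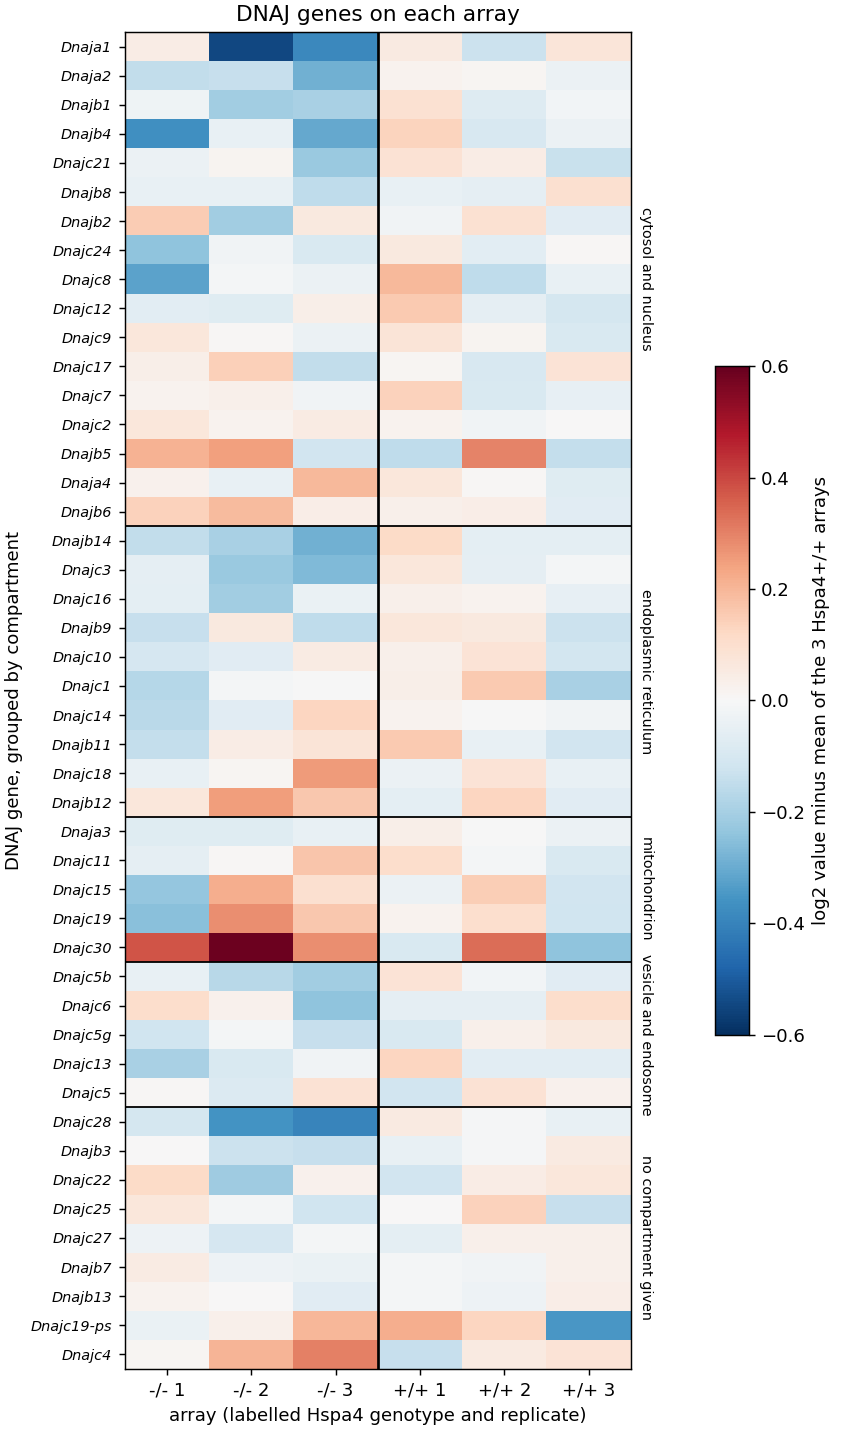
Log2 value of each of the 46 DNAJ genes (rows, by compartment) on each array (columns, the arrays labelled Hspa4-/- left) minus the mean of the 3 wild-type arrays. Dnaja1 and Dnajc28 are dark blue on replicates 2 and 3 labelled Hspa4-/-, and Dnajc30 is red on all 3 arrays of that label and on wild-type replicate 2.

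The partners with which J-domain proteins work were listed separately, and 27 of 30 had a probe set. With 6 arrays 0 of the 27 passed over all genes, with a median of −0.04 (limma). At an unadjusted p under 0.05 there were 7 lower (25.9%, background 5.53%) and 1 higher (3.7%, background 5.64%). On 5 arrays Hsph1 alone passed, with a median over the list of −0.03. There 7 were lower (25.9%, background 6.36%) and 3 higher (11.1%, background 8.55%) at an unadjusted p under 0.05. The list was chosen with earlier results of these data known, and its counts were not tested against other genes. Hsph1, an exchange factor and relative of Hspa4, read 7.31, 6.62 and 6.66 on the arrays labelled Hspa4-/- and 7.74, 7.53 and 7.64 in wild type. As for Dnaja1, Dnajb1 and Dnajc28, replicate 1 was the highest array of its label. It differed by −0.77 (SE 0.16; limma, adjusted p = 0.210) on 6 arrays and fell by 1.00 on 5 (SE 0.08; limma, adjusted p = 0.00334). Hspa13, an Hsp70 of the endoplasmic reticulum, differed by −0.41 and −0.37 (limma, adjusted p = 0.210 and 0.0780). Stub1, the ubiquitin ligase that binds Hsp70, differed by 0.33 and 0.41 (limma, adjusted p = 0.229 and 0.0620).

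The Hsp70 that class A and B proteins of the cytosol serve, Hspa8, overlapped between groups with a difference of −0.11 on 6 arrays and −0.18 on 5 (limma, adjusted p = 0.762 and 0.474). Hspa9, the mitochondrial partner of Dnaja3, differed by −0.04 and 0.04. Hspa5, or BiP, the partner of the luminal members, read 10.06, 9.52 and 10.00 on the arrays labelled Hspa4-/- and 10.35, 10.12 and 10.28 in wild type. It did not overlap and differed by −0.39 (SE 0.13; limma, adjusted p = 0.315) and −0.49 (SE 0.13; limma, adjusted p = 0.150). Sec63, a J-domain protein of the endoplasmic reticulum translocon that carries another name, read 8.70, 8.61 and 8.72 on the arrays labelled Hspa4-/- and 9.05, 8.89 and 8.90 in wild type. Its difference was −0.27 (SE 0.07; limma, adjusted p = 0.245) on 6 arrays and −0.28 (SE 0.08; limma, adjusted p = 0.158) on 5. Hspa8, Hspa9, Hspa5 and Sec63 were picked from the partner list after their values were seen.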

How the data were processed

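RNA of 6 mouse heart ventricles was measured on Affymetrix Mouse Gene 1.0 ST arrays. The deposited log2 values, 1 for each array and probe set, were produced by the authors in R 2.13.0 with affy, per the submitters' processing notes. The sources used here do not give the background correction, normalisation or summary method. Of 21225 probe sets, 20239 carried 1 symbol in the platform annotation table, 0 several and 986 none. A model with 2 groups was fitted over all 20239 in limma 3.58.1 (R 4.3.3; lmFit, eBayes, Benjamini-Hochberg, threshold 0.05), with no filter, after tests on simulated data. Differences are Hspa4-/- label minus wild type, and each SE is limma's moderated one. The members, lists and roles were chosen with earlier results of these data known.

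Compartments came from general knowledge, and 9 members got none. The rule for named genes took class A, 13 members with known roles, and the 8 other class B or C members with the smallest p in each form. The partner list held the J-domain genes with other names, Hsp70s, exchange factors, and factors of client handover and heat shock. The 3 partners with the smallest p were named. Alternatives were low-value filters (25% and 50%), quantile normalisation, subtracted array medians, array weights, a replicate block and leaving out each array. Marker lists of atrial, fibroblast, endothelial, smooth muscle, erythroid, neuron and Schwann, and lung and thymus cells had 0 members past the threshold in either form, and 1, a smooth muscle gene on 5 arrays, at an unadjusted p under 0.05 (limma). Ratios on the linear scale were computed from the log2 differences. Figures were drawn with matplotlib 3.10.9. Promoter windows came from a RefSeq table on GRCm38.p6.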

Additional observations from a re-analysis of the deposited data

How the results depend on the processing

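The count of members past the threshold stayed at 0 on 6 arrays under every alternative, leaving out each array included (limma). Of all 20239 genes, 115 passed there with array weights, 89 without the array labelled Hspa4-/- replicate 1 and 112 without wild-type replicate 2. In the other 6-array settings 0 to 2 genes passed. On the 5 arrays without the array labelled Hspa4-/- replicate 1 it was 0 in the reported form, 1 with the lowest 50% of genes left out (Dnaja1), 1 with quantile normalisation (Dnajc28) and 2 with array weights (Dnaja1 and Dnajc28). Of all genes, 89 of 20239 passed in the reported form and 167 of 10120 with that filter. With quantile normalisation 94 of 20239 passed, and with array weights 321. The count of members was 0 to 3 when a further array was left out. The 3 came without wild-type replicate 2, where 875 of 20239 genes passed. With another of the 5 arrays left out, 2 to 25 genes passed. The replicate block gave 0 members in both forms, where 2 of 20239 genes passed on 6 arrays and 134 on 5. The replicate numbers are shared only as numbers: the deviations of same-numbered arrays correlated at −0.172, 0.0916 and −0.249, and the array labelled Hspa4-/- replicate 1 correlated best with wild-type replicate 3 (0.33). At an unadjusted p under 0.05 the members numbered 1 to 11 on 6 arrays with an array left out, and 4 with the block on 5 arrays against 11 without it. Array weights raised the 6-array count to 10, 3 higher and 7 lower, and quantile normalisation turned the 5-array split to 1 higher and 7 lower. The share of all genes at that unadjusted p was taken only for the reported forms. The class A median on 5 arrays was −0.18 with quantile normalisation and the class C median −0.06. With a further array left out of the 5, the class medians ran from −0.16 to −0.10 (class A), from −0.11 to −0.03 (class B) and from −0.05 to 0.01 (class C). Compartment medians with 1 array left out ran from −0.06 to −0.01 on 6 and −0.09 to −0.01 on 5 (cytosol and nucleus), from −0.11 to −0.01 and −0.08 to 0.03 (endoplasmic reticulum), from −0.04 to 0.15 and 0.10 to 0.23 (mitochondrion), and from −0.11 to −0.06 and −0.14 to −0.06 (vesicles and endosomes). Quantile normalisation gave −0.07 for the endoplasmic reticulum on 5 arrays. Of 744 comparisons of named members with an alternative, 688 kept direction and call, 7 passed the threshold newly and 49 changed sign, in 16 members that lay near 0 and were never called. Part of this agreement was fixed in advance. The low-value filters, and the replicate block on 6 arrays, leave each difference unchanged, so no sign could turn there. Leaving replicate 1 labelled Hspa4-/- out of the 6 arrays repeats the 5-array fit. Signs turned with quantile normalisation on 6 arrays for Dnajc5 (−0.003) and Dnajc7 (−0.014) and on 5 for Dnajc2 (−0.012), Dnajc5 (−0.030) and Dnajc7 (−0.053), with array weights for Dnajc7 (−0.017 on 6, −0.029 on 5), with the replicate block on 5 arrays for Dnajb5 (−0.012), Dnajc5 (−0.048) and Dnajc10 (0.005), and with subtracted medians on 5 for Dnajc10 (0.000). With 1 array left out of 6, differences ran as follows: Dnaja4 −0.009 to 0.11, Dnajb2 −0.076 to 0.10, Dnajb11 −0.066 to 0.072, Dnajc5 −0.046 to 0.053, Dnajc7 −0.033 to 0.079, Dnajc10 −0.091 to 0.003, Dnajc19 −0.041 to 0.22, Dnajc15 −0.066 to 0.15, Dnajc18 −0.014 to 0.14, Dnajc6 −0.11 to 0.064, Dnajc11 −0.022 to 0.093, Dnajc22 −0.10 to 0.070. With 1 left out of 5 they ran: Dnaja4 −0.045 to 0.20, Dnajb2 −0.21 to 0.058, Dnajb5 −0.11 to 0.24, Dnajb9 −0.15 to 0.064, Dnajc5 −0.079 to 0.094, Dnajc7 −0.040 to 0.072, Dnajc10 −0.070 to 0.052, Dnajc6 −0.24 to 0.022, Dnajc21 −0.23 to 0.017, Dnajc22 −0.22 to 0.024. The causes were not tested. With no background measure in the table, signal over background is unknown.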
